A study of Homo sapiens with 4 samples.

Results

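The genes described here make, take up, move and export cholesterol: 30 of the 59050 gene symbols in a table of read counts. They were taken by name for their place in the pathway, with earlier results of these data known. All 30 were found and passed the filter on low counts. By role, 20 encode enzymes of synthesis, 4 regulate the pathway, 4 serve uptake, traffic and storage of sterol, and 2 export it. The cells were HUES8, an established human embryonic stem cell line, grown on Matrigel in mTeSR1 medium. Libraries from total RNA comprised 2 with the genotype label CPT2 KO and 2 with the genotype label WT, and the treatment label reads WT for all 4. CPT2 completes the entry of long-chain fatty acids into the mitochondrial matrix for oxidation. How the knockout was made, and whether the line is a clone, is not given in the sources used here.

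Cells build cholesterol from acetyl-CoA through mevalonate, isoprenoid pyrophosphates, squalene and lanosterol. The transcription factor SREBP2, the product of SREBF2, turns on most of these enzymes when sterol in the endoplasmic reticulum membrane is low: SCAP escorts it to the Golgi, where it is cut and released, and INSIG1 holds SCAP back when sterol is plentiful. High sterol acts in the other direction through liver X receptors, which raise the exporters ABCA1 and ABCG1 and the ubiquitin ligase MYLIP. Acetyl-CoA is also the end product of the fatty acid oxidation that CPT2 feeds and the donor for protein acetylation, which the study's title names.

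Before the results, 2 facts about the libraries matter. CPT2 itself went against the labels, with 233 and 170 counts where the label is CPT2 KO and 52 and 72 where it is WT. The log2 fold change of CPT2 was 1.78 (SE 0.27, adjusted p = 0.0218 by the edgeR quasi-likelihood test), so every difference below is between libraries as labelled. Replicate 1 labelled WT was unlike the remaining 3 libraries. Compared over genes with at least 10 counts in the pair, its chi-square per degree of freedom was 45.8 and 53.3 against replicates 1 and 2 labelled CPT2 KO and 39.6 against its own partner, while pairs among the other 3 libraries gave 10.5 to 12.6. Totals ranged from 16887789 to 20460031 counts, and 1 count was worth 0.0485 to 0.0603 CPM (counts relative to the library total, after TMM scaling between libraries). The labels do not say that replicates were separate cultures, so p-values reflect only how far these libraries differ, possibly for technical reasons. Pluripotency markers were high in every library: 8 of them summed to 8461 and 9333 CPM with the label CPT2 KO and to 8542 and 8598 CPM with the label WT, with 0 called. PODXL, a surface sialomucin, had 1076 and 1233 CPM against 1486 and 1321 CPM with the label WT (adjusted p = 0.591), and DNMT3B, a DNA methyltransferase, 1748 and 2099 against 1341 and 1892 CPM (adjusted p = 0.694).

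None of the 30 cholesterol genes passed the test between genotypes: 0 were called higher and 0 lower by the edgeR quasi-likelihood test at an adjusted p of 0.05, against a background of 0.359% of the 17564 tested genes called higher and 0.0569% called lower. DESeq2 likewise called 0 of the 30 in either direction, with 0.848% of all genes called higher and 0.262% lower. Most members were nevertheless on the lower side in the libraries labelled CPT2 KO: the log2 fold change was negative for 23 and positive for 7, and its median was -0.32, beside 0.0017 over all tested genes. In such libraries fewer cells with active synthesis and less RNA per cell cannot be told apart. At an unadjusted p below 0.05 there were 8 members in edgeR, against 1588 of all 17564 genes, and 9 in DESeq2, against 1257 of all 17564. The 8 in edgeR were ACAT2, HMGCS1, FDFT1, SQLE, MSMO1, INSIG1, SREBF2 and SCAP, each with a negative log2 fold change. The smallest adjusted p among members was 0.251, for INSIG1. In 11 members both libraries labelled CPT2 KO were below both labelled WT, and in 3 (LBR, NPC1 and ABCG1) both were above. Over all tested genes these shares were 19.8% and 21.1%.

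The difference between genotypes depended on which library labelled WT it was taken against. In 24 of the 30 members the highest of the 4 values was that of replicate 1 labelled WT, which held the highest value for 31.8% of all tested genes and the lowest for 32.5%. Replicate 2 labelled CPT2 KO held the lowest value in 18 members, and for 28.5% of all tested genes. With replicate 1 labelled WT left out, the members' median was -0.024, with 17 negative, and 0 members were called (0.516% of all genes higher and 0.161% lower). With replicate 2 labelled WT left out, the median was -0.58 and 14 members were called lower, against 3.49% of all genes. That setting rests on replicate 1 as the only library labelled WT, which is assumed to vary like the other group. With replicate 1 labelled CPT2 KO left out the members' median was -0.45, and with replicate 2 labelled CPT2 KO left out it was -0.26.

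**Figure D1:**
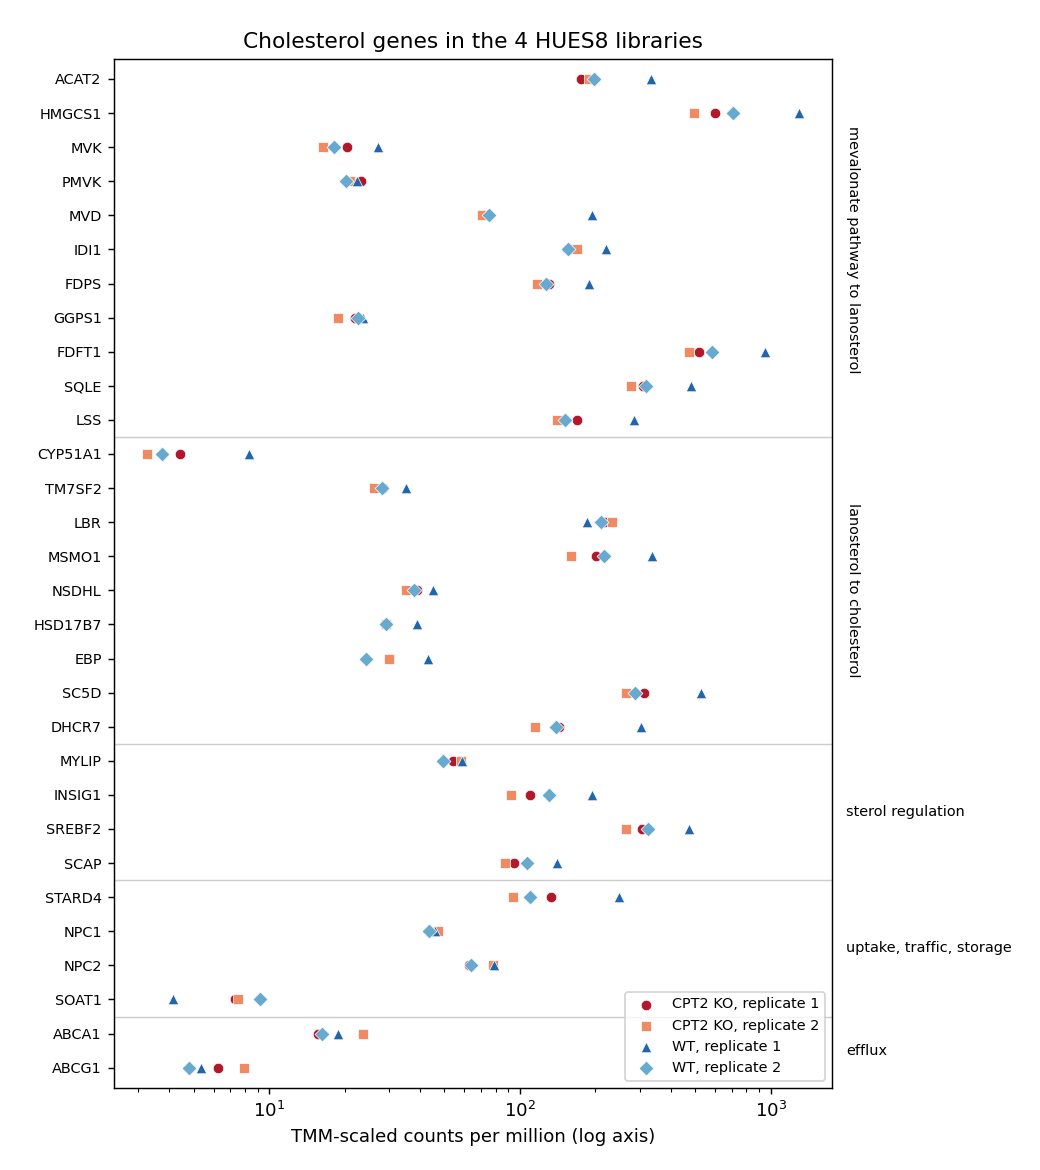
TMM-scaled CPM of each cholesterol gene (horizontal log axis) in the 2 libraries labelled CPT2 KO and the 2 labelled WT, ordered by step of the pathway; markers that coincide hide each other. Replicate 1 labelled WT lies to the right of the other libraries for most synthesis genes, such as MVD at 194 CPM against 70.8 to 75.6, while LBR and SOAT1 show it on the left.

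Early mevalonate enzymes held some of the widest gaps. HMGCS1, which forms HMG-CoA from acetoacetyl-CoA (chromosome 5, 43289395 to 43313512, minus strand, GRCh38), had 603 and 494 CPM with the label CPT2 KO, against 1303 and 709.5 CPM with the label WT. The groups did not overlap, and the difference between the WT-labelled replicates exceeded that between WT replicate 2 and either library labelled CPT2 KO. The log2 fold change was -0.88 (SE 0.30, edgeR adjusted p = 0.490). ACAT2, the cytosolic thiolase that condenses acetyl-CoA units, had 175 and 189 CPM in the libraries labelled CPT2 KO, against 334 and 197 CPM in those labelled WT (log2 fold change -0.55, SE 0.23, adjusted p = 0.540). Only replicate 1 labelled WT was set off from the rest. ACAT2 shares exon positions with TCP1 and SOD2 on the opposite strand, so some of its reads are uncertain.

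The kinases and the decarboxylase that turn mevalonate into isopentenyl pyrophosphate were not alike. MVD, the decarboxylase, had 73.4 and 70.8 CPM with the label CPT2 KO and 194 and 75.6 CPM with the label WT. Its log2 fold change of -0.90 was the most negative of the 30 members, and its SE was 0.55 (adjusted p = 0.695): replicate 1 labelled WT alone was high, and WT replicate 2 lay just above the libraries labelled CPT2 KO. MVK, mevalonate kinase, had 20.4 and 16.4 CPM with the label CPT2 KO and 27.1 and 18.1 CPM with the label WT, and the groups overlapped. PMVK, the kinase of the following step, was level, at 23.3 and 21.0 CPM against 22.3 and 20.3 CPM in the libraries labelled WT (log2 fold change 0.057). MVK shares 306 exon bases with MMAB on the opposite strand.

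Among the isoprenoid enzymes, FDPS, which makes farnesyl pyrophosphate, had 130.4 and 117 CPM with the label CPT2 KO, against 189 and 127 CPM with the label WT (log2 fold change -0.35, SE 0.18, adjusted p = 0.599). IDI1, the isomerase upstream of it, had 158 and 169 CPM against 221 and 155 CPM with the label WT. Both genes showed replicate 1 labelled WT as the high library, and WT replicate 2 lay among or below the libraries labelled CPT2 KO. GGPS1, which leads away from sterols to geranylgeranyl groups for protein prenylation, had 21.9 and 18.9 CPM against 23.6 and 22.7 CPM with the label WT (log2 fold change -0.18). Its log2 ratio between the WT-labelled replicates, 0.060, was the nearest to 0 of the synthesis genes. GGPS1 shares 1422 exon bases with TBCE on the same strand.

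The steps from farnesyl pyrophosphate to lanosterol commit carbon to sterols, and each of their genes was highest in replicate 1 labelled WT. FDFT1, squalene synthase, had 517 and 474 CPM with the label CPT2 KO, against 949 and 582 CPM with the label WT (log2 fold change -0.63, SE 0.21, adjusted p = 0.428). SQLE, squalene epoxidase, had 310.0 and 278 CPM against 481 and 319 CPM in the libraries labelled WT (log2 fold change -0.44, SE 0.18, adjusted p = 0.521). In both genes the groups did not overlap, and WT replicate 2 was closer to the libraries labelled CPT2 KO than to its own partner. LSS, which closes the ring to lanosterol, had 169 and 140.5 CPM against 286 and 152 CPM with the label WT, and its groups overlapped.

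After lanosterol, the demethylation enzymes divided. MSMO1, the sterol methyl oxidase (chromosome 4, 165327623 to 165343160, plus strand), had 200.5 and 160.2 CPM with the label CPT2 KO, against 337 and 217 CPM with the label WT (log2 fold change -0.62, SE 0.21, adjusted p = 0.429), without overlap. NSDHL, which acts with it, had 38.7 and 35.0 CPM against 44.8 and 37.8 CPM in the libraries labelled WT, with overlap. HSD17B7, a reductase of the same complex, had 28.96 and 29.2 CPM against 38.8 and 29.3 CPM with the label WT. In HSD17B7 replicate 1 labelled WT was the high library and the other 3 were nearly level. CYP51A1, the lanosterol demethylase, had only 89 and 54 counts against 153 and 77 counts in the libraries labelled WT. Its exons share 2844 bases with AC000120.2 on the same strand, which is listed at 0 in every library, so its level is uncertain where reads fit both genes.

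LBR and TM7SF2 encode sterol reductases for the same bond, and LBR is also a receptor for lamins in the inner nuclear membrane. LBR (chromosome 1, 225401502 to 225428925, minus strand) had 217 and 234 CPM with the label CPT2 KO and 186 and 209.8 CPM with the label WT. It was 1 of 2 synthesis genes with a positive log2 fold change (0.19, SE 0.13, adjusted p = 0.694), the other being PMVK, and the only synthesis gene in which replicate 1 labelled WT was the lowest library. TM7SF2 had 28.4 and 26.1 CPM in the libraries labelled CPT2 KO against 35.1 and 28.3 CPM with the label WT (log2 fold change -0.21). Per kilobase of gene length, LBR averaged 37.1 CPM over the 4 libraries and TM7SF2 8.64, and every library of LBR was above every library of TM7SF2.

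The last steps were led by the same library. DHCR7, a terminal reductase of the pathway, had 143 and 114.5 CPM with the label CPT2 KO, against 305.5 and 139 CPM with the label WT (log2 fold change -0.78, SE 0.44, adjusted p = 0.665). SC5D, the desaturase before it, had 312.5 and 265 CPM against 528 and 289 CPM with the label WT. EBP, the isomerase that shifts a ring double bond, had 30.14 and 30.01 CPM against 42.8 and 24.3 CPM with the label WT. For all 3 the groups overlapped, with WT replicate 2 below at least 1 library labelled CPT2 KO. Leaving out WT replicate 1 gave a log2 fold change of 0.31 for EBP, -0.00062 for SC5D and -0.11 for DHCR7.

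Of the 4 regulators among the members, INSIG1, SREBF2 and SCAP were on the lower side together. For further sterol regulators, given below, the median log2 fold change was -0.099. INSIG1 (chromosome 7, 155297776 to 155310235, plus strand) had 109 and 92.5 CPM with the label CPT2 KO (mean 100.9 ± 11.9, SD, n = 2) and 193 and 130.2 CPM with the label WT (mean 162 ± 44.6, SD, n = 2). Its log2 fold change was -0.68 (SE 0.19, edgeR adjusted p = 0.251). SREBF2 had 307 and 265 CPM against 471 and 326 CPM with the label WT (log2 fold change -0.48, SE 0.18, adjusted p = 0.453). SCAP had 94.4 and 87.6 CPM against 140.2 and 107 CPM with the label WT (log2 fold change -0.44, SE 0.16, adjusted p = 0.432). In each of these genes both libraries labelled CPT2 KO were below both labelled WT. Without WT replicate 1 the log2 fold changes were smaller, at -0.37 for INSIG1, -0.19 for SREBF2 and -0.23 for SCAP. MYLIP, whose product marks lipoprotein receptors for breakdown, had 54.3 and 58.0 CPM against 58.8 and 49.6 CPM with the label WT, and its groups overlapped.

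The promoters of 6 members are shown because their genes carry the pattern: regulators and enzymes with the wide gaps, and LBR, which ran the other way. Each window covers 250 bases before to 50 after the RefSeq start (GRCh38.p14) and reads along the gene. Capitals mark matches on either strand to CACNCCAC, the core of a sterol regulatory element, and to CCAAT, the box bound by NF-Y, which works with SREBP2 at sterol genes.
SREBF2, chr22:41832855-41833154, plus strand: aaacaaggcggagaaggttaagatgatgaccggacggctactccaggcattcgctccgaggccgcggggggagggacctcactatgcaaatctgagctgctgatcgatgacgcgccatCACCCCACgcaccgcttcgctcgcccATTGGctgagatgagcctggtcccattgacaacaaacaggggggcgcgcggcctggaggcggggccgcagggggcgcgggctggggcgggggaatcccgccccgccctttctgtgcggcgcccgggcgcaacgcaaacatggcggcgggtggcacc
INSIG1, chr7:155297628-155297927, plus strand: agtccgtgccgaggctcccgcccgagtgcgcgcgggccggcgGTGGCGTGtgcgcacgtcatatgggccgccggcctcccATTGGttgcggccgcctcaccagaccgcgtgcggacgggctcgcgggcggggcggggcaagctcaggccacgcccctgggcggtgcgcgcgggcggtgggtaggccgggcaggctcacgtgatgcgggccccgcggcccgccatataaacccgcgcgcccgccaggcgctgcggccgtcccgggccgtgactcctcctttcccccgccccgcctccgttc
HMGCS1, chr5:43313363-43313662, minus strand: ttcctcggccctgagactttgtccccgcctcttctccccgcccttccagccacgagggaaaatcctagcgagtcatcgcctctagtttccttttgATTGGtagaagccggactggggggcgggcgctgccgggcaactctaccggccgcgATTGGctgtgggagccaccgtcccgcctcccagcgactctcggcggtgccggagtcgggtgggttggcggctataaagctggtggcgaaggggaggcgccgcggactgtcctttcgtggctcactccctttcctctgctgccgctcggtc
MVD, chr16:88663042-88663341, minus strand: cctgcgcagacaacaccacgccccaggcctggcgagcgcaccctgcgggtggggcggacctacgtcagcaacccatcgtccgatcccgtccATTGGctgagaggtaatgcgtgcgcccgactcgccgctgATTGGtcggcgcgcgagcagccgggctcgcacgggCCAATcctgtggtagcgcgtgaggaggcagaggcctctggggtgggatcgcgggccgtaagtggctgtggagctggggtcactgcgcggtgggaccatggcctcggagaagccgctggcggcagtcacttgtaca
MSMO1, chr4:165327419-165327718, plus strand: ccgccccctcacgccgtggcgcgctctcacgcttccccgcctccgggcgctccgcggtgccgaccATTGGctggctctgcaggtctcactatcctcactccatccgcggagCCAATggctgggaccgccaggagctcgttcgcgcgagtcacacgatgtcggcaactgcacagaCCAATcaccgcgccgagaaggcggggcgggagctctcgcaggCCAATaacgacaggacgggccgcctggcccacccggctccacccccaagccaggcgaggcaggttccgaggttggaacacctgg
LBR, chr1:225428772-225429071, minus strand: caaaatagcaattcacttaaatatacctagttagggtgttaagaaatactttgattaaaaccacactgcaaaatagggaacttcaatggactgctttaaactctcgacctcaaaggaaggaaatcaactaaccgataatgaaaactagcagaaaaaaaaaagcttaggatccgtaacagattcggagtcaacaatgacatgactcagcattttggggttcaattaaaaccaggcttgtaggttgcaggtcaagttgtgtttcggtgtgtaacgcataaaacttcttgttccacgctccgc

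The fuller element TCACNCCAC, which contains the shorter string, occurred in 1 of 34 RefSeq promoter windows of 26 members, that of SREBF2, and in 1.13% of all 35116 windows. In SREBF2 the shorter match lies 132 to 125 bases before the start, and in INSIG1 a match on the opposite strand lies 208 to 201 bases before it. CACNCCAC was found in 6 of the 34 windows (17.6%, in IDI1, SC5D, INSIG1, SREBF2 and ABCA1), against 5.87% of all windows. The windows of SC5D overlap and hold the same match, so 5 of the 26 genes carry it. This shorter string was searched after the result for the longer string was seen. For each string searched, the set of all windows was not matched to the members in base composition. CCAAT was found in 22 of 34 windows (64.7%) against 34.6% of all: 4 times in MSMO1, 3 times in MVD, 2 times in the HMGCS1 window shown and 0 times in LBR. Among members not shown, SCAP and CYP51A1, with negative log2 fold changes, had 0 matches, and MYLIP and SOAT1, with positive ones, had 2 and 1. The GC box GGGCGG was in 30 of 34 windows (88.2%) against 45% of all. These are matches of letters, searched on both strands, and say nothing of which factors were bound in these cells. ACAT2, FDFT1, SQLE and ABCG1 were not matched.

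Of the members for uptake, traffic and storage, NPC1 and NPC2 had log2 fold changes near 0, unlike STARD4. STARD4, a soluble sterol carrier, had 132.5 and 93.5 CPM with the label CPT2 KO, against 248 and 109.5 CPM with the label WT (log2 fold change -0.66, SE 0.50, adjusted p = 0.743). It had the widest difference between the libraries labelled CPT2 KO of any member on the positive side, a log2 ratio of 0.50 of replicate 1 over replicate 2, and its log2 ratio between the WT-labelled replicates was 1.18. NPC1, the membrane protein that moves cholesterol out of late endosomes, had 46.3 and 47.0 CPM against 45.9 and 43.3 CPM with the label WT (log2 fold change 0.064, SE 0.15). NPC2, its soluble partner, had 62.9 and 77.9 CPM against 78.7 and 64.0 CPM. For NPC1 both libraries labelled CPT2 KO were narrowly above both labelled WT, and for NPC2 each pair of replicates differed by more than the labels did.

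SOAT1, the acyltransferase that stores cholesterol as esters, was the member most unlike the rest in replicate 1 labelled WT. It had 148 and 125 counts with the label CPT2 KO and 76 and 189 counts with the label WT, or 7.33 and 7.53 CPM against 4.12 and 9.17 CPM. Both libraries labelled CPT2 KO lay between the WT-labelled replicates (log2 fold change 0.15, SE 0.35, adjusted p = 0.925). SOAT1 and LBR were the only members in which replicate 1 labelled WT was below replicate 2.

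The exporters were low, and neither passed the test; both log2 fold changes were positive, but ABCG1 alone was higher in both libraries labelled CPT2 KO. ABCG1, which passes cholesterol to lipoprotein particles, had 126 and 132 counts with the label CPT2 KO and 99 and 99 with the label WT, or 6.24 and 7.95 CPM against 5.37 and 4.81 CPM. Its groups did not overlap, and its log2 fold change of 0.47 (SE 0.28, adjusted p = 0.635) was the most positive of the 30. ABCA1, which loads cholesterol onto apolipoprotein, had 15.6 and 23.6 CPM against 18.8 and 16.3 CPM with the label WT (log2 fold change 0.16, SE 0.23, adjusted p = 0.861), with replicate 2 labelled CPT2 KO alone above the rest. For ABCG1 the log2 fold change stayed between 0.30 and 0.65 with any library left out, and for ABCA1 it ranged from -0.17 to 0.43.

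**Figure D2:**
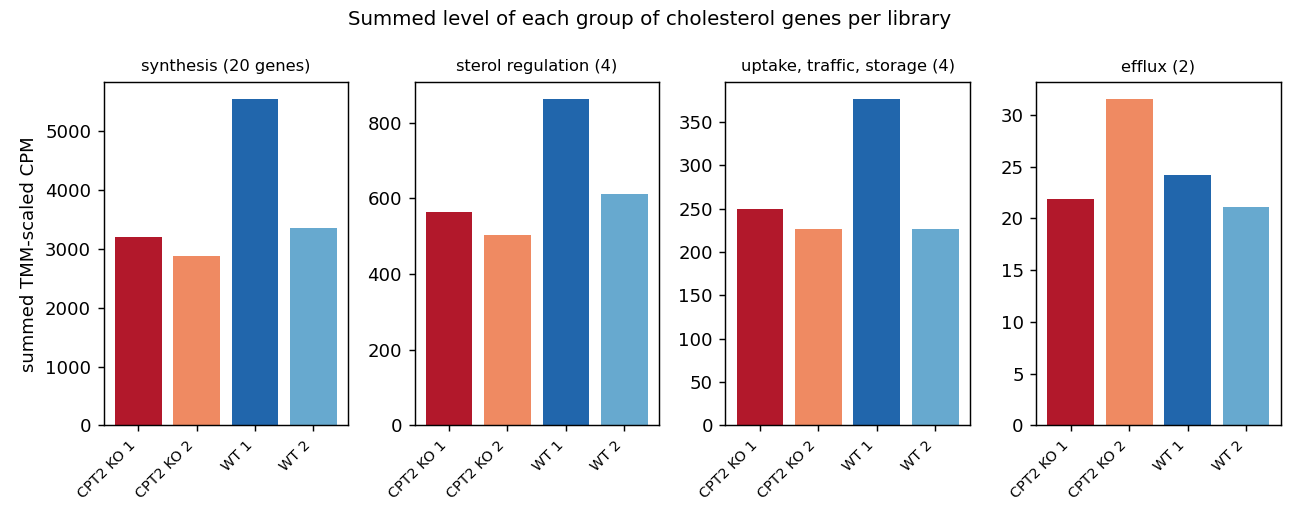
Summed TMM-scaled CPM of the genes of synthesis, regulation, uptake with traffic and storage, and efflux (vertical axes from 0, different scale per panel), in the 2 libraries labelled CPT2 KO and the 2 labelled WT, 1 bar per library. Synthesis genes sum to 3206 and 2886 CPM with the label CPT2 KO against 5555 and 3356 CPM with the label WT, and only the efflux panel has its tallest bar in a library labelled CPT2 KO.

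Summed over the 20 synthesis genes, levels were 3206 and 2886 CPM in the libraries labelled CPT2 KO, against 5555 and 3356 CPM in those labelled WT. The 4 regulators summed to 565 and 503 CPM against 864 and 612 CPM with the label WT, and the uptake, traffic and storage genes to 249 and 226 CPM against 377 and 226 CPM. The exporters gave 21.8 and 31.6 CPM against 24.2 and 21.1 CPM with the label WT. The sums of synthesis and regulators therefore kept both libraries labelled CPT2 KO below WT replicate 2, by less than WT replicate 2 was below its partner. Such sums are weighted to the genes with the most counts. In replicate 1 labelled CPT2 KO, 12 of the 20 synthesis genes were above WT replicate 2 and 8 below (median log2 ratio 0.032). In replicate 2 labelled CPT2 KO, 4 were above and 16 below (median -0.11).

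**Figure D3:**
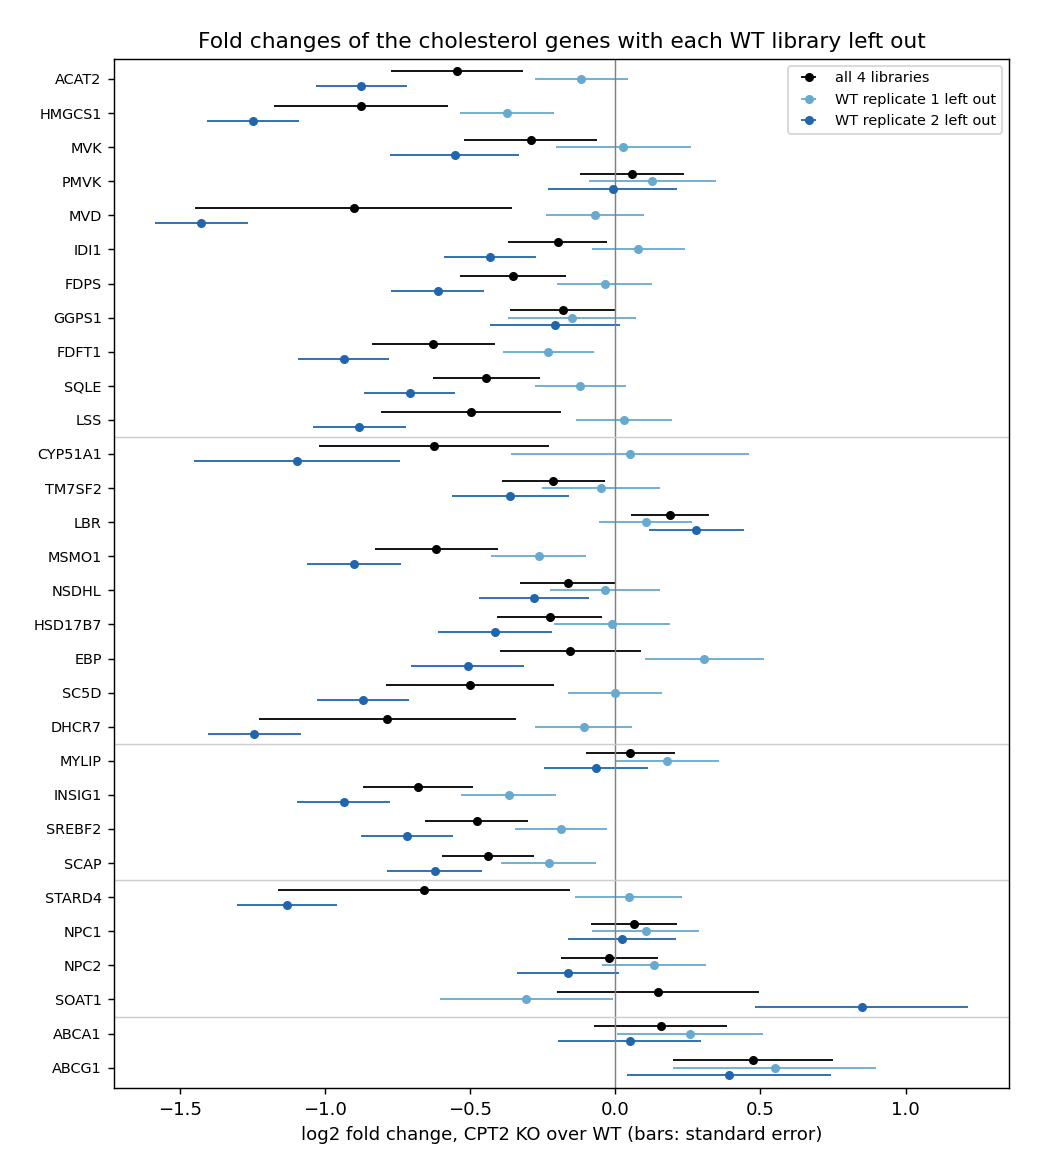
Log2 fold change of each cholesterol gene, libraries labelled CPT2 KO over WT, with standard error bars, fitted with all 4 libraries, without WT replicate 1 and without WT replicate 2. Without replicate 1 the values of most synthesis genes lie near 0, as for SC5D at -0.00062, and without replicate 2 they reach -1.43 for MVD.

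Set against WT replicate 2 alone, the members lay on both sides. In replicate 1 labelled CPT2 KO, 16 members were above and 14 below WT replicate 2, with a median log2 ratio of 0.018. In replicate 2 labelled CPT2 KO, 9 were above and 21 below, with a median of -0.11. In the fit without WT replicate 1, which kept WT replicate 2 as the only library with that label, 17 of the 30 members were negative. HMGCS1 and INSIG1 were the most negative there, each with a log2 fold change of -0.37. Against WT replicate 1, 25 members were below it in each library labelled CPT2 KO, with median log2 ratios of -0.52 and -0.69.

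In the fit without WT replicate 2, which kept WT replicate 1 as the only library with that label, 25 of the 30 members were negative. That library is assumed to vary like the other group, so only effect sizes are given here. MVD had the largest change there (log2 fold change -1.43), followed by HMGCS1 (-1.25) and DHCR7 (-1.24). With all 4 libraries MVD had a log2 fold change of -0.90 (SE 0.55, edgeR adjusted p = 0.695). PMVK, MYLIP, NPC1 and ABCA1 were near no change in that fit, from -0.067 for MYLIP to 0.050 for ABCA1. SOAT1 was at 0.85.

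The ratios between replicates can be set side by side for the 2 labels. The log2 ratio of replicate 1 over replicate 2 labelled WT was positive for 28 members, with a median of 0.55 and a range from -1.16 (SOAT1) to 1.36 (MVD). The same ratio between the libraries labelled CPT2 KO was positive for 20 members, with a median of 0.14 and a range from -0.60 (ABCA1) to 0.50 (STARD4). Across the 30 genes these ratios, which have no library in common, had a Pearson r of 0.480 and a Spearman rho of 0.592, beside 0.365 and 0.405 over the 20 synthesis genes alone and 0.171 and 0.212 over all tested genes. Genes of a pathway are not independent points, and each axis rests on 1 pair of libraries. Of the 10 members with a negative ratio between the libraries labelled CPT2 KO, ABCA1 (-0.60), ABCG1 (-0.35) and NPC2 (-0.31) were the most negative, and LBR and SOAT1 were negative between the WT-labelled replicates too.

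**Figure D4:**
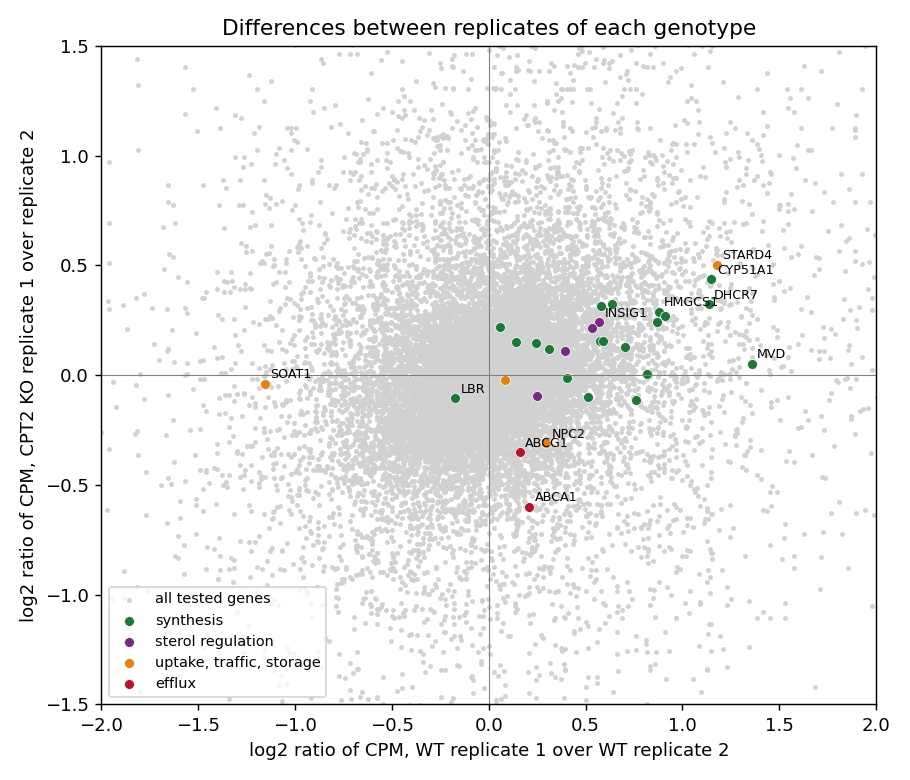
Log2 ratio of CPM between the replicates labelled CPT2 KO (vertical) against that between the replicates labelled WT (horizontal), for the cholesterol genes by role and all tested genes in grey; 572 of the tested genes lie outside the axes. Most synthesis genes lie in the upper right, STARD4 farthest up at 0.50, with SOAT1 alone far to the left.

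Per kilobase of the deposited gene length, a rough scale for comparing genes, the order ran from squalene and HMG-CoA synthesis down to export. The deposited length need not be that of the transcript expressed, so the order is approximate. FDFT1 and HMGCS1 averaged 121 and 117 CPM per kilobase over the 4 libraries. FDFT1 ran from 91.3 to 183 and HMGCS1 from 74.5 to 197 across libraries, so their order is within their spread. SQLE and MSMO1 followed at 80.6 and 80.1 CPM per kilobase. SREBF2 itself ranked among enzymes, at 45.3, above INSIG1 at 36.0 and SCAP at 17.1. NPC2 averaged 25.8 CPM per kilobase and its partner NPC1 4.70, with no library of NPC1 reaching the lowest of NPC2. ABCA1, CYP51A1, SOAT1 and ABCG1 were lowest, at 1.65, 1.40, 1.01 and 0.995 CPM per kilobase, each overlapping its neighbour in this order. The place of CYP51A1 is uncertain, because 2844 of its exon bases are shared with AC000120.2 on the same strand and reads there may not have been counted.

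**Figure D5:**
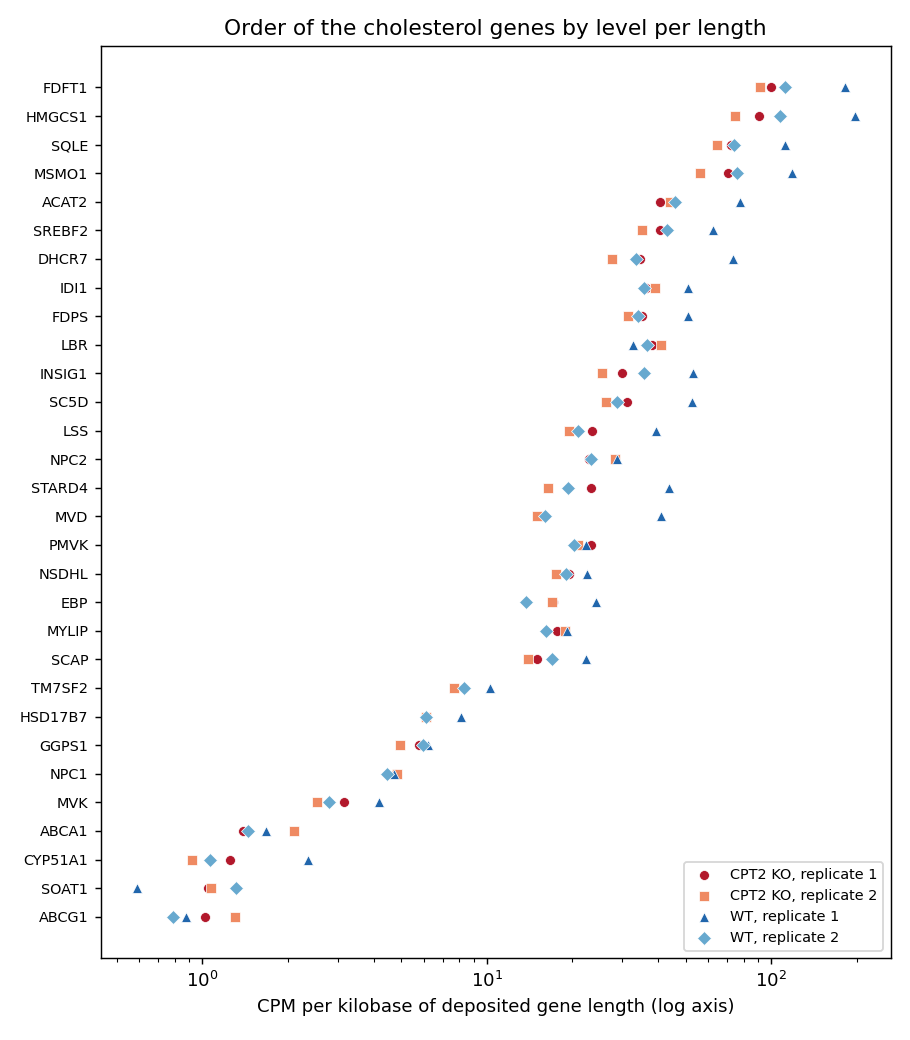
CPM per kilobase of deposited gene length (horizontal log axis) for the cholesterol genes ordered by their mean, 1 marker per library labelled CPT2 KO or WT. Levels span from about 1 CPM per kilobase for ABCG1 and SOAT1 to 121 for FDFT1, and within a gene the marker of WT replicate 1 is usually the farthest right.

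Other genes around sterols gave 0 calls over all tested genes. The fatty acid genes that SREBP factors also control had a negative log2 fold change in 11 of 11 tested (median -0.42), with ACSS2, an acetyl-CoA synthetase, at 64.7 and 52.7 CPM with the label CPT2 KO and 275 and 75.2 CPM with the label WT (adjusted p = 0.686), and FASN, fatty acid synthase, at 996 and 883 CPM against 2088 and 1137 CPM (adjusted p = 0.512). Replicate 1 labelled WT was again highest in all 11: without it the median was -0.14 with 0 called, and without WT replicate 2 it was -0.67 with 7 called lower. Further sterol regulators (15 tested, 10 negative, median -0.099) included NR1H3, a liver X receptor, at 10.7 and 9.22 CPM against 14.5 and 11.3 CPM with the label WT (adjusted p = 0.661). INSIG2, the relative of INSIG1, had 24.3 and 10.6 CPM against 44.3 and 11.8 CPM, with overlap (adjusted p = 0.872).

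Further transport and uptake genes had small medians. Among 17 tested sterol transport genes, 13 had a negative log2 fold change (median -0.093), with TMEM97 at 111 and 107 CPM with the label CPT2 KO and 154.5 and 124 CPM with the label WT (adjusted p = 0.523), and GRAMD1B, a sterol transfer protein at membrane contacts, at 18.1 and 20.6 against 14.58 and 14.95 CPM (adjusted p = 0.589). Of 7 tested genes of lipoprotein uptake, 4 were negative (median -0.040, and 0.22 without WT replicate 1), and LRP1, an endocytic receptor, had 177 and 169.5 CPM against 264 and 203 CPM with the label WT (adjusted p = 0.429). VLDLR had 34.8 and 28.4 CPM against 76.4 and 24.03 CPM, with overlap (adjusted p = 0.818). Genes of oxysterols and minor steps (10 tested, 8 negative) had a median of -0.33, which was -0.071 without WT replicate 1 and -0.44, with 3 called lower, without WT replicate 2. They included ERG28, a scaffold of the demethylation complex, at 68.8 and 69.5 CPM against 132 and 81.6 CPM (adjusted p = 0.397), and CYP27A1, a sterol hydroxylase, at 9.65 and 4.76 against 16.6 and 9.32 CPM (adjusted p = 0.572).

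The branches that leave the pathway before squalene leaned the other way, with 12 of 16 tested genes of prenylation, dolichol and ubiquinone positive (median 0.089). RABGGTB, a subunit that prenylates Rab proteins, had 115 and 133 CPM with the label CPT2 KO and 87.0 and 104 CPM with the label WT (adjusted p = 0.493). ZMPSTE24, which processes prenylated prelamin, had 96.9 and 119.5 CPM against 61.2 and 95.5 CPM with the label WT (adjusted p = 0.559). In both genes WT replicate 1 was the lowest library. The median of this group was 0.23 without WT replicate 2 and 0.11 without WT replicate 1.

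Other features of the libraries also set replicate 1 labelled WT apart, as the cholesterol genes did, and their part in the result was not tested. Hypoxia genes summed to 813 and 498 CPM with the label CPT2 KO and 2323 and 552 CPM with the label WT, with 13 of 13 tested negative and 0 called. Their median log2 fold change of -1.05 rested on replicate 1 labelled WT: it was 0.20 without that library and -1.75, with 7 called lower, without WT replicate 2. DDIT4 (17.8 and 4.82 CPM against 64.6 and 13.0 CPM, adjusted p = 0.754) and NDRG1 (3.91 and 1.51 against 16.6 and 2.04 CPM, adjusted p = 0.766) are hypoxia-inducible examples. Glycolysis genes summed to 8441 and 8062 CPM against 18820 and 7667 CPM with the label WT, with 14 of 14 tested negative and 0 called. Their median of -0.69 likewise turned to 0.19 without replicate 1 labelled WT, and was -1.18, with 13 called lower, without WT replicate 2. PFKFB4 had 45.2 and 22.1 CPM against 172 and 17.9 CPM (adjusted p = 0.811), and PGK1 607 and 426 against 2099 and 425 CPM (adjusted p = 0.773). Mitochondrially encoded genes took 7.84% and 7.73% of counts in the libraries labelled CPT2 KO, against 4.15% and 7.21% in those labelled WT.

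Markers of other cell types were also read beside these genes. Mesendoderm and endoderm markers (9 genes) summed to 257 and 44.4 CPM with the label CPT2 KO and 5.04 and 3.64 CPM with the label WT. Of 7 tested, 0 were called in edgeR (5 at an unadjusted p below 0.05) and 5 in DESeq2, and SOX17 and GATA6 at 0 counts in both libraries labelled WT. CER1 had 2509 and 185 counts against 3 and 0 with the label WT, and EOMES 867 and 109 against 12 and 12 (adjusted p = 0.436 and 0.569). Of the neuroectoderm markers, which summed to 21.5 and 19.8 against 30.1 and 31.1 CPM, SOX1 fell to 15 and 5 counts with the label CPT2 KO, against 82 and 130 (adjusted p = 0.0164), and SIX6 to 2 and 1, against 24 and 67 (adjusted p = 0.0382). SIX3 had 371 and 306 counts against 429 and 435 (adjusted p = 0.676). PAX6 had 40 and 12 counts against 19 and 8, with overlap (log2 fold change 1.01, adjusted p = 0.664), and LHX2, not tested, had 3 and 4 against 0 and 0. Mesenchyme markers summed to 222 and 201 CPM against 198 and 227 CPM, with COL3A1, LUM and DCN at 0 to 7 counts. Of the tested ones, COL1A2 had 187 and 161 CPM against 163 and 187 CPM, and COL1A1 29.4 and 32.8 against 29.2 and 32.9 CPM. Amnion and trophoblast markers summed to 60.6 and 59.7 against 76.3 and 61.9 CPM, with CGA at 0 in every library, TFAP2C at 47.9 and 45.98 against 62.8 and 47.03 CPM and IGFBP3 at 4.21 and 5.30 against 5.85 and 4.76 CPM. The part of these cell types in the values of the cholesterol genes was not tested.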

How the data were processed

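RNA-seq libraries of HUES8 cells, 2 labelled CPT2 KO and 2 labelled WT, were read from 1 table of raw counts per gene symbol deposited by the authors, with gene lengths, per the file headers. The submitters' processing notes name HISAT2 2.1.0, featureCounts 1.6.4 and hg38 (GRCh38). Strand setting, reads with several alignments and annotation release: not given in the sources used here.

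Of 59050 symbols, 17564 passed filterByExpr (at least 10 counts in enough libraries and 15 in all). Counts were tested across all these genes with edgeR 4.0.16 (R 4.3.3): TMM scaling, robust quasi-likelihood F-test, group as the only term, Benjamini-Hochberg adjustment over all tested genes, threshold 0.05. Fold changes are CPT2 KO over WT, and the SE is the log2 fold change divided by the square root of F. The fit was tested on simulated data. The members and lists were chosen with earlier results of these data known, and lists are described by counts and medians, with no test over a list. Named genes are the 30 members, CPT2 and, of each other list, called genes or else up to 2 with at least 5 CPM and the largest change; the markers at or near 0 were chosen after their values were seen. Alternatives were RLE, upper quartile and library-size scaling, no filter, a stricter filter (1 CPM in every library of a group and 50 counts in all), DESeq2 1.42.0, limma-voom (limma 3.58.1), a replicate block, leaving out each library, removing mitochondrial genes and, added after seeing the data, the legacy quasi-likelihood estimate. Positions and exon overlaps come from GENCODE 29 (GRCh38), promoters from RefSeq (GRCh38.p14). Ratios across all genes used 0.1 CPM as a pseudocount.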

Additional observations from a re-analysis of the deposited data

How the results depend on the processing

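Under the 10 alternatives that kept all 4 libraries, every member kept its direction, and 0 members were called higher or lower except with the replicate block, where 3 were called lower (HMGCS1, MSMO1 and INSIG1; edgeR adjusted p = 0.0133, 0.0241 and 0.0133). Replicate numbers are shared between the groups but nothing in the labels says they pair the libraries; deviations of same-numbered libraries from their group means correlated at 0.248, with only 2 pairs. Over all genes the block gave 233 higher and 140 lower calls, DESeq2 149 and 46, no filter on low counts 101 and 23, and the legacy estimate, chosen after seeing the data, 65 and 11, against 63 and 10. With 1 library left out in turn, 0 to 14 members were called lower, 23 to 490 of all genes higher and 1 to 643 lower, and the members' median ranged from -0.58 to -0.024. In those settings 11 members changed sign: PMVK ranged from -0.022 to 0.13, NPC2 from -0.18 to 0.13, ABCA1 from -0.17 to 0.43, MVK from -0.55 to 0.028, IDI1 from -0.43 to 0.080, LSS from -0.88 to 0.029, CYP51A1 from -1.10 to 0.051, EBP from -0.51 to 0.31, STARD4 from -1.13 to 0.047, SOAT1 from -0.31 to 0.85 and MYLIP from -0.067 to 0.18. Without WT replicate 1 the sign changed for MVK, IDI1, LSS, CYP51A1, EBP, STARD4, NPC2 and SOAT1; the cause was not tested.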

Other observations

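Exons of 14 of the 30 members overlap another gene in GENCODE 29, and of 4 on the same strand. The antisense transcript STARD4-AS1 had 535 and 317 counts in the libraries labelled CPT2 KO and 363 and 436 counts in those labelled WT, so it was highest in replicate 1 labelled CPT2 KO while STARD4 was highest in WT replicate 1. Pseudogene copies of FDPS, CYP51A1 and HSD17B7 (13 listed) had at most 17 counts in a library. The highest was CYP51A1P2, with 8 and 12 counts in the libraries labelled CPT2 KO and 17 and 16 in those labelled WT, beside 89 and 54 against 153 and 77 counts of CYP51A1 itself.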
